A study of Mus musculus with 5 samples.

Results

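The Myc network is a family of transcription factors that bind DNA in pairs, and 10 of its genes (Myc, Mycn, Mycl1, Max, Mxd1, Mxd3, Mxd4, Mxi1, Mnt and Mga) were followed across 5 mouse ESC lines. Every probe whose gene name in the scanner files is one of these 10, of 27962 gene names in all, was taken, which gave 20 of the 41174 probes. Wild-type (WT) RF8 is a line of 129sv origin labelled male, and it is the line in which the ECAT11 locus was first targeted. WT #620-2, of C57BL6/129sv origin, is labelled female. The ECAT11EGFP/EGFP lines #620-6 (labelled female), #757-1 and #757-2 (both labelled male) are also of C57BL6/129sv origin, and the coding region of both ECAT11 alleles is replaced by EGFP and a puromycin resistance gene. ECAT11, also called L1td1, encodes a protein related to the first open reading frame of L1 retrotransposons. The 4 lines other than RF8 were derived from blastocysts of heterozygous parents, and the targeted allele of the ECAT11EGFP/EGFP lines comes from 1 clone of RF8 cells. All 5 lines were grown on gelatin with serum and LIF for the arrays, 1 one-colour array per line, so the lines are the replicates and RF8 differs from the other lines in strain and derivation as well as in history. The comparison of ECAT11EGFP/EGFP with WT asks whether ESCs without ECAT11 differ in their transcripts.

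Myc, N-Myc and L-Myc are basic helix-loop-helix leucine zipper proteins. Each pairs with Max, binds the E-box CACGTG and activates genes of ribosome production, nucleotide synthesis, metabolism and cell division. The Mxd proteins (Mxd1, Mxd3, Mxd4 and Mxi1), Mnt and Mga pair with the same Max and repress, Mxd and Mnt through Sin3 corepressors and histone deacetylases, Mga within a variant Polycomb complex. In mouse ESCs LIF signalling maintains Myc, Myc and Mycn together sustain self-renewal, and loss of Max or Mga releases germline genes.

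A probe of the array is a stretch of 60 bases that matches one part of a transcript, and probe positions are those of the scanner files, on genome build mm7. Probes of a gene are numbered here from the brightest to the dimmest. The following 60-mers of Myc, Mycn and Mxd4 are shown because their line-to-line patterns carry most of the results, with the longest run that the Myc and Mycn probes share (8 bases) in capitals.
Myc probe 3, chr15:62063665-62063724, plus strand: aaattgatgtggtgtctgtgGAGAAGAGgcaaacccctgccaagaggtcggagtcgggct
Mycn probe 2, chr12:13000197-13000256, minus strand: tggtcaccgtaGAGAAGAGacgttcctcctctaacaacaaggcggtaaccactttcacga
Mxd4 probe 2, chr5:33240214-33240273, minus strand: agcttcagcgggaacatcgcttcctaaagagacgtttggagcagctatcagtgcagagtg
For the brightest probes of the Myc genes the first 30 bases identify the oligonucleotide.
Myc probe 1, chr15:62064256-62064316, plus strand: gttccttctgacagaactgatgcgctggaa
Mycn probe 1, chr12:12999078-12999137, minus strand: tgtactaattcctacacggcctgtatactt
Mycl1 probe 1, chr4:122446951-122447010, plus strand: gtggtgttaactgtttttgtataagaaaaa
The longest run shared by probes of different genes of the network was 11 bases (Mga probe 3 and Myc probe 2). Probes of the same gene were not compared with each other, nor any probe with other transcripts. No annotation of mm7 was used, and exon or UTR positions are therefore not given.

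Levels are log2 intensities relative to the 75th percentile of the array, so a level of 0 is the signal that 75% of spots do not exceed. A level compares lines for one probe and says nothing of one probe against another. The arrays lay on 2 slides, slide 1 with RF8, #620-2 and #620-6 and slide 2 with #757-1 and #757-2, and slide 1 had 26362 to 27135 detected probes per array (marked well above background by the scanner software) against 21242 and 22044 on slide 2. Accordingly, the lowest level well above background was -6.22 to -5.90 on slide 1 and -4.49 and -4.22 on slide 2. No spot was saturated, and the number of arrays limits the precision. ESC markers were detected in every line, with all 15 probes of 11 marker genes well above background on all 5 arrays. Pou5f1, for example, had levels of 2.57 in RF8, 3.05 in #620-2, 2.87 in #620-6, 2.72 in #757-1 and 2.55 in #757-2. Sox2 likewise lay between 4.14 and 4.67, but some markers differed more between lines. Zfp42 probe 2 had 6.26 in RF8, 5.97 in #620-2, 1.32 in #620-6, 5.80 in #757-1 and 1.35 in #757-2. Klf4 ran from 4.15 in RF8 to 6.87 in #620-2, and Nanog from 2.54 in RF8 to 4.54 in #620-6. Detection of the markers therefore does not show that the lines were alike in them. The transcript of ECAT11 itself is not analysed here, since no probe carries its name.

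Transcripts of all 10 genes were detected. Of the 20 probes, 16 were well above background on all 5 arrays and each gene had at least 1 such probe, 18 were well above background on at least 1 array and entered the tests, and probe 3 of Mxd4 and probe 2 of Mxi1 were at background in every line. The Mxi1 probe at background lies on the opposite strand to probe 1 of the gene. None of the 18 probes tested was called between the genotypes at an adjusted p under 0.05 and more than 2-fold by limma, while 0.00345% of all 28972 probes tested were (1 probe). At an unadjusted p under 0.05, 2 of the 18 passed, Myc probes 1 and 3, against 7.6% of all probes, and the methods' t-test gave 0 calls after adjustment and 1 at an unadjusted p under 0.05. Of the 18, 13 were lower and 5 higher on average in the ECAT11EGFP/EGFP lines. The lines of the 2 genotypes did not overlap in 7 of the 18, 5 with the ECAT11EGFP/EGFP lines lower and 2 with them higher, against 23.5% of all probes in either direction (12.1% lower, 11.4% higher). All 3 Myc probes and both Mxd3 probes were among the 5 lower ones, so these probes count 2 genes.

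**Figure D1:**
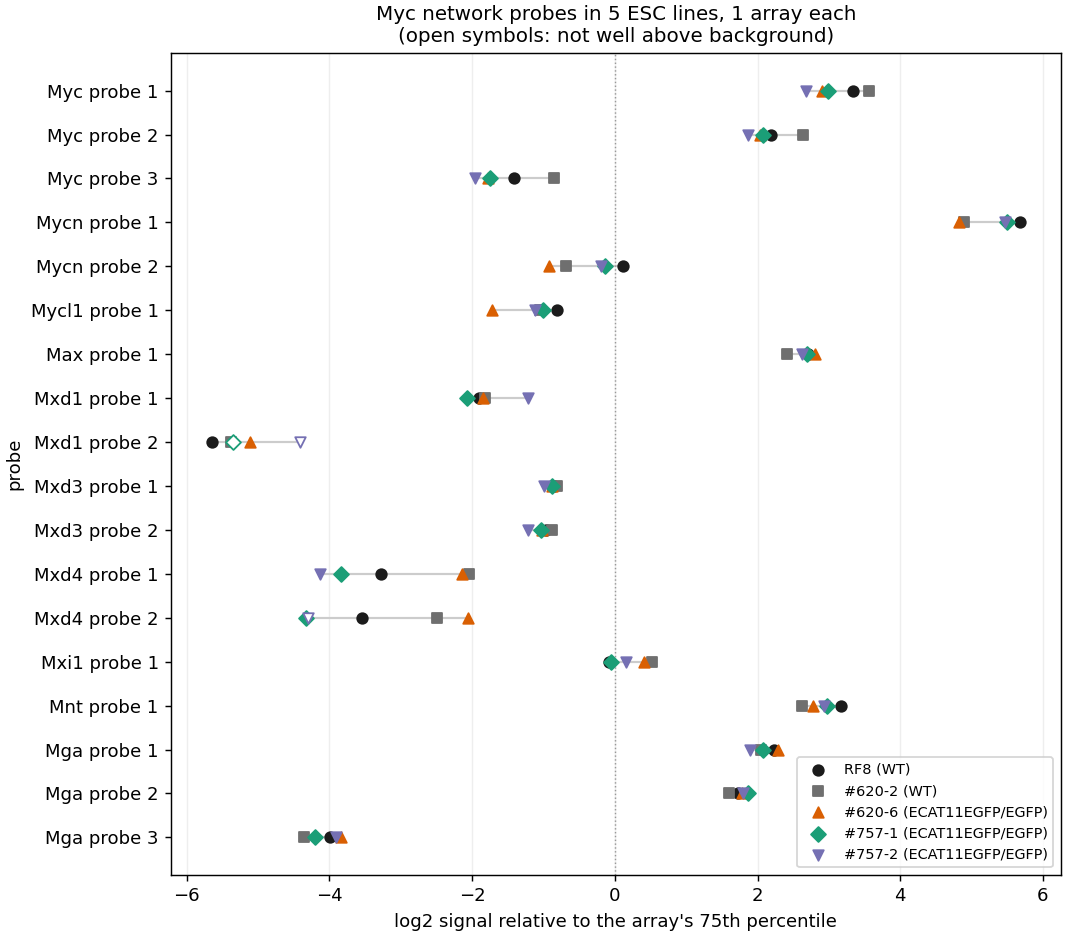
Levels of the 18 tested probes of the Myc network in each of 5 ESC lines, as log2 signal relative to the 75th percentile of the array, with 1 symbol per line, open for readings at background. The 3 ECAT11EGFP/EGFP lines lie below both WT lines for each Myc probe, and Mxd4 has the widest spread over lines, with #620-2 and #620-6 at its upper end.

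The mRNA of Myc, the family's founding member and a target of LIF signalling, was lower in each ECAT11EGFP/EGFP line than in either WT line, in all 3 probes, and the group means differed by less than 2-fold. Probe 1, which is spotted 10 times on each array, had a level of 3.33 in RF8, 3.56 in #620-2, 2.91 in #620-6, 2.98 in #757-1 and 2.68 in #757-2. The highest ECAT11EGFP/EGFP line thus lay below the lowest WT line. The means were 3.44 ± 0.16 (SD, n = 2) in WT and 2.86 ± 0.15 (SD, n = 3) in ECAT11EGFP/EGFP, a log2 difference of -0.59 (SE 0.18), or 1.5-fold, with an adjusted p of 0.569 over all probes. The repeated spots show the spread of readings within an array. Their SD within an array was between 0.0365 and 0.092, and the spots of RF8 (3.14 to 3.47) did not overlap those of #757-1 (2.89 to 3.05), the nearest ECAT11EGFP/EGFP line. Spots of #620-2 (3.46 to 3.62) overlapped those of RF8, and spots of #620-6 (2.83 to 2.94) overlapped those of #757-1, so the ranges of these neighbours were not apart, although those of #620-2 and RF8 met only at their ends. The spots of #757-2, from 2.60 to 2.77, lay below all others. Spots of one array share one RNA sample and one hybridization, so their spread leaves out differences between cultures, arrays and slides. RF8 and #757-1 lay on different slides.

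The other Myc probes ordered the lines at both ends in the same way. Probe 2 (chr15:62064157-62064216) gave 2.18 in RF8, 2.63 in #620-2, 2.03 in #620-6, 2.08 in #757-1 and 1.87 in #757-2. Probe 3, the 60-mer printed above, gave -1.42 in RF8, -0.86 in #620-2, -1.77 in #620-6, -1.75 in #757-1 and -1.96 in #757-2. In all 3 probes #620-2 was highest and #757-2 lowest. Their genotype differences were -0.42 (SE 0.20, adjusted p = 0.752) and -0.69 (SE 0.23, adjusted p = 0.593) by limma. The 3 probes measure one transcript on the same arrays and are not independent evidence. Under 15 alternative settings the differences ranged from -0.70 to -0.47 for probe 1, -0.64 to -0.19 for probe 2 and -0.97 to -0.41 for probe 3. Since the genotypes do not overlap, leaving out a line could not have turned their sign. Without #620-2 they were the smallest, at -0.47, -0.19 and -0.41, and none then had an unadjusted p under 0.05, nor did any without #757-2 (-0.50, -0.35 and -0.62). Within slide 1, the only slide with both genotypes, #620-6 lay below the mean of RF8 and #620-2 by 0.54, 0.38 and 0.64. The difference in probe 1 was -0.65 between the lines labelled female and -0.50 between those labelled male. Chromosome 15, which carries Myc, had median deviations from the mean over lines of -0.055 to 0.043 over 811 probes, and the part of the chromosome in the Myc levels was not tested.

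Mycn, which shares duties with Myc in ESCs, separated the lines in another way, with both #620 lines lower than the other 3 whatever their genotype. Probe 1 had levels of 5.68 in RF8, 4.90 in #620-2, 4.83 in #620-6, 5.49 in #757-1 and 5.47 in #757-2. Probe 2, at another part of the gene, had 0.11 in RF8, -0.68 in #620-2, -0.93 in #620-6, -0.13 in #757-1 and -0.20 in #757-2. In both probes RF8 was highest and #620-6 lowest, and the genotypes overlapped. The genotype differences were -0.026 (SE 0.35, adjusted p = 0.996) and -0.135 (SE 0.38, adjusted p = 0.978) by limma, and their signs turned without RF8 and without #620-6. Within slide 1, where #620-6 stands for its genotype, they were -0.46 and -0.64. Between the 2 WT lines probe 1 differed by -0.79 (#620-2 minus RF8), more than between the genotype means. Levels of fibroblast markers are given with Mxd4, and the part of other cells in the Mycn levels was not tested. The WT line with the highest Myc level had the lower Mycn level of the WT pair, and #757-2, lowest in Myc, was not low in Mycn. Other lines went the other way, since RF8 was above the ECAT11EGFP/EGFP lines in Myc and highest in Mycn. Likewise #620-6 was below both WT lines in Myc and lowest in Mycn. The correlation r of Myc with Mycn probes over the 5 lines ran from -0.42 to -0.035.

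Mycl1, the gene of L-Myc (named Mycl in current annotation), had 1 probe, well above background in every line. Its levels were -0.82 in RF8, -1.04 in #620-2, -1.72 in #620-6, -1.01 in #757-1 and -1.12 in #757-2. The line #620-6 stood lowest, and the other 4 lines lay between -1.12 and -0.82. The genotype difference was -0.35 (SE 0.28, adjusted p = 0.872), with overlapping groups. It was -0.13 without #620-6, and -0.79 within slide 1, where #620-6 is the only ECAT11EGFP/EGFP line, with an unadjusted p under 0.05 when the slide was a block.

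**Figure D2:**
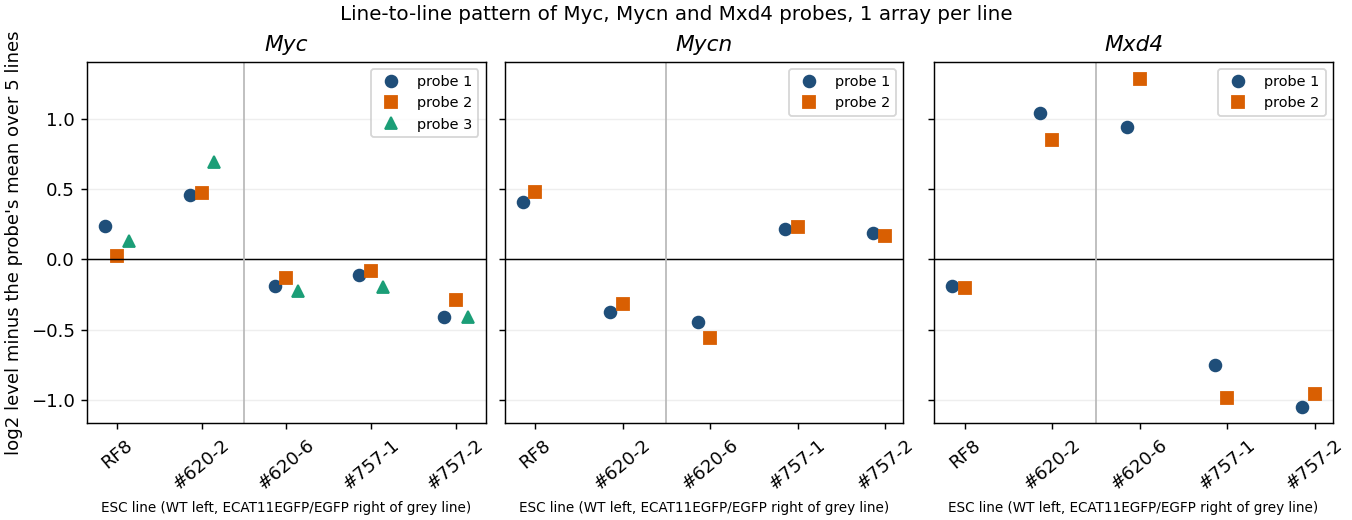
Level of each tested probe of Myc (left), Mycn (middle) and Mxd4 (right) in each ESC line, as the log2 difference from the mean of that probe over the 5 lines, with symbols for probes. For Myc #620-2 is highest and #757-2 lowest, for Mycn #620-2 and #620-6 lie below the other lines, and for Mxd4 the same pair lies above them.

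Max, the shared partner of the network, varied little. Its probe (chr12:74895981-74896040) gave 2.70 in RF8, 2.42 in #620-2, 2.80 in #620-6, 2.70 in #757-1 and 2.63 in #757-2. Only #620-2 stood apart, at the low end, and 26.4% of all probes had a smaller range over the lines. The genotype difference was 0.15 (SE 0.17, adjusted p = 0.923), or 1.11-fold.

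Among the Mxd repressors, Mxd4 was the most variable gene of the network and Mxd3 the least. Mxd4 is a Mad protein associated with differentiating cells. Its probe 1 (chr5:33236743-33236802) had levels of -3.28 in RF8, -2.04 in #620-2, -2.14 in #620-6, -3.83 in #757-1 and -4.14 in #757-2, a range of 4.28-fold that exceeded the range of 95.7% of probes. The low end lay near the lowest detected levels of slide 2 (-4.49 in #757-1 and -4.22 in #757-2). With normexp #757-2 minus #620-2 was -1.13, against -2.10, and #757-1 and #757-2 differed from RF8 by -0.24 and -0.28. Probe 2, printed above, had -3.55 in RF8, -2.50 in #620-2, -2.06 in #620-6 and -4.33 in #757-1, and was not well above background in #757-2, at -4.31. Both probes were higher in #620-2 and #620-6 than in the other 3 lines, the reverse of Mycn. The genotype differences were -0.71 (SE 0.76, adjusted p = 0.913) and -0.54 (SE 0.85, adjusted p = 0.956), and within slide 1 they turned to 0.52 and 0.97. In probe 2 the difference was 0.44 between the lines labelled female and -0.77 between those labelled male. The latter rests on #757-1 near the detection limit of slide 2 and #757-2 below it, and with normexp #757-1 and #757-2 differed from RF8 by -0.17 and -0.16. The interaction of genotype and sex label was -1.21 (SE 0.26, adjusted p = 0.383) on 1 residual degree of freedom, and 0% of the 28915 probes tested for it, and none of the 18 of the network, had an adjusted p under 0.05. Unadjusted, 3057 probes (10.6%) and 1 of the 18, Mxd4 probe 2, had a p under 0.05.

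Some markers of fibroblasts were also highest in the #620 lines. The 12 genes of the fibroblast list had 20 kept probes, and the levels of their brightest probes, in units of the 75th percentile, summed to 105 in #620-2 and 112 in #620-6, above 48.8 in RF8, 31.6 in #757-1 and 38.7 in #757-2. The list as a whole did not set the #620 lines above RF8, since the median deviation of its probes stood at 0.33 in #620-2 and 0.26 in #620-6, at 0.25 in RF8, and at -0.77 in #757-1 and -0.21 in #757-2. The largest single contribution to the sums in the #620 lines was S100a4, which had levels of -0.06 in RF8, 5.61 in #620-2, 5.70 in #620-6, -1.66 in #757-1 and -1.40 in #757-2. The collagen gene Col1a2, a defining fibroblast marker, had instead its highest level in RF8 (2.52), with 1.63 in #620-2, 1.54 in #620-6, -1.38 in #757-1 and -0.04 in #757-2. Lum was well above background in 2 lines and Lox in 3. In bulk RNA, more cells of another type and more transcript per cell cannot be told apart, and the part of such cells in the Mxd4 levels was not tested. Summed levels of endoderm markers lay between 1.70 and 2.65 with #620-2 and #620-6 highest, and those of trophoblast markers between 27.2 in #620-2 and 93.0 in RF8.

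Mxd3, a Mad protein of proliferating cells, was nearly constant. Probe 1 gave -0.86 in RF8, -0.82 in #620-2, -0.89 in #620-6, -0.88 in #757-1 and -0.998 in #757-2, and only 4.44% of probes had a smaller range. Probe 2 gave -0.97 in RF8, -0.88 in #620-2, -1.02 in #620-6, -1.04 in #757-1 and -1.22 in #757-2. Both probes put every ECAT11EGFP/EGFP line below both WT lines, with differences of -0.085 (SE 0.14, adjusted p = 0.958) and -0.16 (SE 0.15, adjusted p = 0.9), the first smaller than its SE and the second about as large.

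Mxd1, the first Mad protein described and a factor of terminal differentiation, had 1 probe well above background in every line and 1 near background. Probe 1 (chr6:86722282-86722341) had -1.90 in RF8, -1.83 in #620-2, -1.85 in #620-6, -2.07 in #757-1 and -1.22 in #757-2. The single high line was #757-2. Probe 2 had -5.65 in RF8, -5.38 in #620-2 and -5.12 in #620-6, and was not well above background on slide 2, where it read -5.35 in #757-1 and -4.41 in #757-2. Its difference of 0.55 (SE 0.33, adjusted p = 0.822) therefore rests on 2 readings at background, although the genotypes did not overlap. In probe 1 the difference was 0.15 (SE 0.30, adjusted p = 0.967), and without #757-2 it was -0.093.

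Mxi1, the repressor also called Mxd2, had levels in probe 1 (chr19:53274432-53274491) of -0.08 in RF8, 0.52 in #620-2, 0.41 in #620-6, -0.06 in #757-1 and 0.16 in #757-2. Both #620 lines were again highest. The genotype difference was -0.048 (SE 0.27, adjusted p = 0.988), and its sign turned in 4 of 15 settings.

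Mnt, the most widely expressed antagonist of Myc, had a level of 3.17 in RF8, 2.62 in #620-2, 2.78 in #620-6, 2.97 in #757-1 and 2.93 in #757-2 (chr11:74926987-74927046). RF8 was highest and #620-2 lowest, and the genotype means were equal at 2.89 (difference -3e-04, SE 0.22, adjusted p = 1). Mnt lies on chromosome 11, whose 1717 probes well above background on all arrays deviated from their mean over lines by a median of 0.17 in RF8, -0.25 in #620-2, -0.0016 in #620-6, -0.070 in #757-1 and 0.15 in #757-2. Mnt itself deviated by 0.28, -0.28, -0.12, 0.080 and 0.036 in the same order, so RF8 was above and #620-2 below the mean both for Mnt and for its chromosome. None of the other 8 chromosomes that carry a gene of the network had a median deviation of more than 0.0703 in size in any line. The part of the chromosome in the Mnt levels was not tested.

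Mga, a large protein with a T-box domain beside its Max-binding domain, was represented by 3 probes. Probe 1 (chr2:119689050-119689109) gave 2.24 in RF8, 2.05 in #620-2, 2.29 in #620-6, 2.08 in #757-1 and 1.89 in #757-2. Probe 2 (chr2:119705665-119705724) gave 1.73 in RF8, 1.61 in #620-2, 1.78 in #620-6, 1.87 in #757-1 and 1.80 in #757-2, with all ECAT11EGFP/EGFP lines above both WT lines. Probe 3, whose ends lie 12757 bases apart on the genome and so span an intron or more, was dimmer, from -4.36 in #620-2 to -3.84 in #620-6. The probes did not order the lines alike, and the genotype differences were -0.059, 0.15 and 0.20 with SEs of 0.19, 0.14 and 0.21 (adjusted p of 0.979, 0.901 and 0.914).

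**Figure D3:**
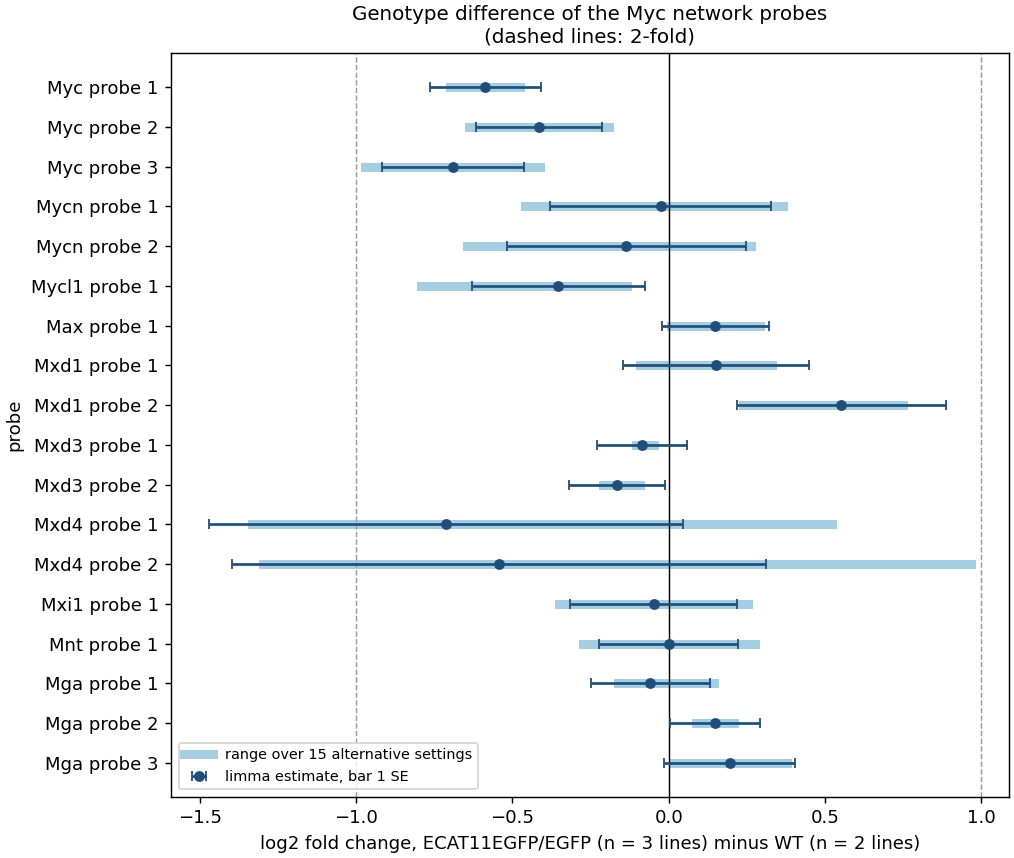
Log2 difference between ECAT11EGFP/EGFP (3 lines) and WT (2 lines) for the 18 tested probes of the Myc network, with points for the limma estimate, thin bars for 1 SE and pale bars for the range over 15 alternative settings. No estimate passes 2-fold (dashed lines), the bars of the 3 Myc probes lie below 0, and the Mxd4 probes have the widest bars and cross 0.

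Pairs of single lines show where the network varied within a genotype, as differences with no test. Between the WT lines (#620-2 minus RF8), 2 of 18 probes of the network differed by more than 2-fold, against 10.3% of all probes. Both were Mxd4 probes, by 1.24 and 1.05, which became 0.86 and 0.66 with the normexp background correction. Between #620-6 and #620-2, which share strain, sex label and slide but not genotype, 0 of 18 differed by more than 2-fold, against 7.1% of all probes, and the median size of the difference was 0.24 for the network and 0.25 for all probes. Within the ECAT11EGFP/EGFP group, 2 of 17 probes differed by more than 2-fold between #757-1 and #620-6 (11% of all probes) and 1 of 16 between #757-2 and #620-6 (8.15%). All of these were again Mxd4 probes, lower in the #757 lines by 1.70 and 2.28 in #757-1 and by 2.00 in #757-2. With normexp these 3 differences were -1.02, -1.18 and -1.06. Between #757-2 and #757-1 none of 16 did, against 1.82% of all probes. Of the 16 probes well above background in every line, 3 (Myc probe 3, Mycn probe 2 and Mxd4 probe 1) had a range over the 5 lines of more than 2-fold, which is 18.8% against 23.5% of all 20617 such probes.

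The probes most like the brightest Myc, Mycn and Mycl1 probes across the 5 lines were sought among 3251 probes with an SD over lines of at least 0.5. For Myc they were Nkx6-2 (r = 0.985), the ephrin receptor gene Epha2 (r = 0.975) and Tatdn2 (r = 0.970). Epha2, for instance, had levels of 4.12 in RF8, 4.82 in #620-2, 3.69 in #620-6, 3.76 in #757-1 and 3.30 in #757-2. For Mycn they were the Wnt receptor gene Fzd2, Slc35d3 and Pkia, each with r of 0.998, and for Mycl1 Fam171b (r = 0.998), Lrfn4 (r = 0.997) and the chromatin organizer gene Satb1 (r = 0.997). The points are 5 arrays that the probes share. An r over 0.99 was found for 16 of the 3251 probes with Mycn, 18 with Mycl1 and 0 with Myc, and an r over 0.9 was found for 379 of the 3251 probes with Mycn (11.7%), for 273 with Mycl1 (8.4%) and for 30 with Myc (0.923%).

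Among the genes that Myc activates, about as many probes were higher as lower. Their list held 56 genes of ribosome production, nucleotide synthesis, translation, metabolism and the cell cycle, with 97 kept probes. Of these, 53 were higher and 44 lower in the ECAT11EGFP/EGFP lines, none was called, 1 (lower) had an unadjusted p under 0.05, and the median log2 difference was 0.0038. Over all kept probes 13721 were higher and 15251 lower, with a median of -0.019. Ncl, the nucleolar protein nucleolin, had levels of 7.60 in RF8, 7.57 in #620-2, 7.52 in #620-6, 7.70 in #757-1 and 7.56 in #757-2 in its brightest probe. Odc1, the first enzyme of polyamine synthesis, likewise lay between 7.36 and 7.62. These 2 genes were named for their place among the best known Myc targets, with their values already seen. The 2 highest genes of the list were Nop58 (0.27, SE 0.14, adjusted p = 0.775) and Wdr43 (0.26, SE 0.17, adjusted p = 0.85), both of ribosome assembly. The lowest were the cyclin gene Ccnd2 and Dnph1 (-0.39, SE 0.17, adjusted p = 0.721). Ccnd2 had 2.01 in RF8, 2.38 in #620-2, 2.09 in #620-6, 0.46 in #757-1 and 0.36 in #757-2, so its difference of -1.23 (SE 0.61, adjusted p = 0.758) lay in the 2 lines on slide 2, while #620-6 was level with the WT lines.

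Of 11 genes that Myc represses, 16 probes were kept, 5 higher and 11 lower, with none called, 2 lower at an unadjusted p under 0.05 and a median of -0.24. The median was 0.16 without #620-2. Ndrg2, the lowest gene of the list by brightest probe, had 0.90 in RF8, 0.59 in #620-2, -0.55 in #620-6, -0.66 in #757-1 and -0.12 in #757-2. Its genotypes did not overlap, and its difference of -1.18 (SE 0.24) had an adjusted p of 0.417. Gata6, a transcription factor of endoderm, was the other low gene (-0.95, SE 0.70, adjusted p = 0.864), and Gadd45a (0.28) and Btg1 (0.25) were the high ones. The cyclin-dependent kinase inhibitor gene Cdkn1a, a classical target of Myc repression added with its values seen, had -0.33 in RF8, 0.31 in #620-2, 0.43 in #620-6, -0.10 in #757-1 and -0.47 in #757-2.

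Among 12 cofactors of Myc 23 probes were kept, 12 higher and 11 lower with a median of 0.041. By brightest probe the lowest were Kat5 (-0.25) and Ruvbl2 (-0.17), both of the Tip60 acetyltransferase complex, and the highest were the acetyltransferase gene Kat2a (0.25) and Zbtb17 (0.28), the gene of Miz-1. None of these 23 was called or had an unadjusted p under 0.05. Among 11 genes that control the stability of the Myc protein 24 probes were kept, 8 higher and 16 lower, with a median of -0.089. Gsk3b, the kinase that marks Myc for degradation, was 1 of the 24 with an unadjusted p under 0.05, at -2.06 in RF8, -2.13 in #620-2, -1.58 in #620-6, -1.71 in #757-1 and -1.52 in #757-2. In this probe, the brightest of the gene, all ECAT11EGFP/EGFP lines were above both WT lines, and the difference was 0.49 (SE 0.15, adjusted p = 0.571). The phosphatase subunit gene Ppp2r5a (-0.41) and the deubiquitinase gene Usp28 (-0.20) were the lowest by brightest probe. RNA arrays do not measure Myc protein.

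The Mlx branch is a parallel network whose factors pair with Mlx in place of Max. All 5 kept probes of its 3 genes were higher, against 47.4% of all kept probes, with a median of 0.25, and none was called. Of these 5, Mlx probe 2 was well above background in only 2 lines and Mlxipl probe 2 in 3. Mlxipl, the glucose-responsive factor ChREBP, had 0.02 in RF8, -1.60 in #620-2, -0.54 in #620-6, -0.68 in #757-1 and -0.38 in #757-2, so #620-2 was lowest. The median of the branch was -0.095 without that line and 0.93 without RF8. Mlx differed by 0.063 and Mlxip by 0.0036. Of the 7 corepressor genes of Mxd and Mnt 15 probes were kept, 10 higher and 5 lower, with a median of 0.066, none called and 1 (Ncor1 probe 4, higher) with an unadjusted p under 0.05. By brightest probe the Sin3 scaffold gene Sin3b was highest (0.39, SE 0.24, adjusted p = 0.821) and its paralog Sin3a lowest (-0.12), with Suds3 at 0.18. Hdac1 (0.056) followed the line pattern of Mycn, with 5.52 in RF8, 4.86 in #620-2, 4.82 in #620-6, 5.47 in #757-1 and 5.44 in #757-2. Of 13 genes of the Mga complex 25 probes were kept, 11 higher and 14 lower, with a median of -0.018 and none called. Its extremes were Yaf2 (-0.31), E2f6 (-0.25), Rybp (0.19) and L3mbtl2 (0.17).

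**Figure D4:**
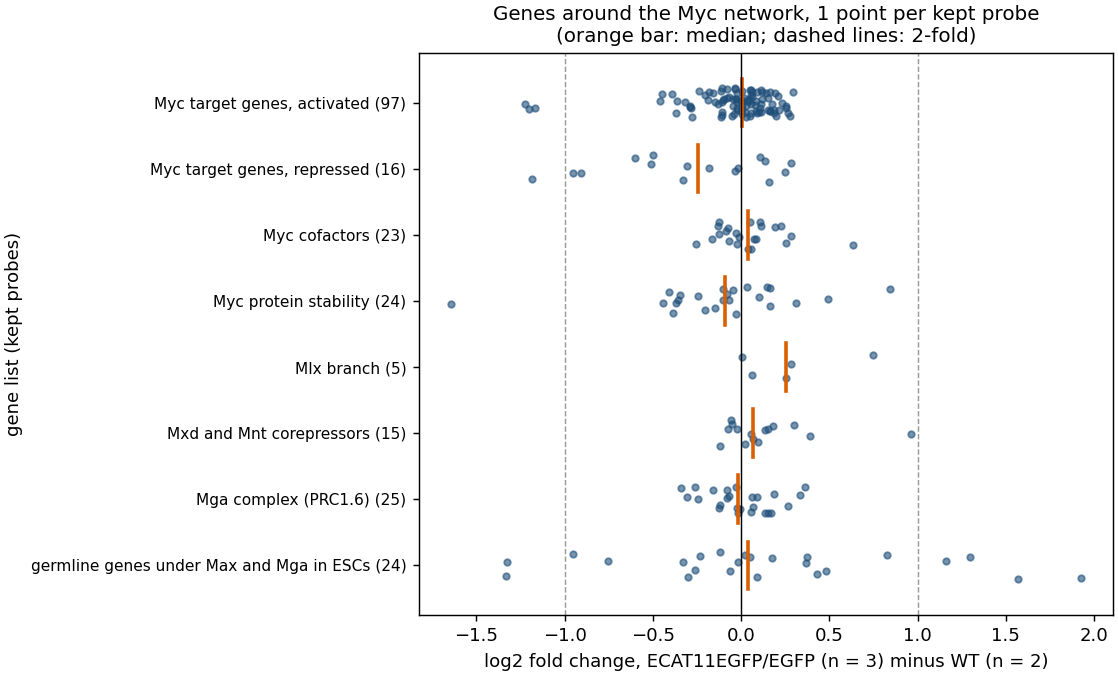
Log2 difference between ECAT11EGFP/EGFP (3 lines) and WT (2 lines) for each kept probe of 8 lists of genes around the Myc network, with the number of probes in brackets and the median of each list as an orange bar. Targets that Myc activates gather around 0 apart from 3 Ccnd2 probes below -1, and germline genes spread from -1.33 to 1.93.

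Germline genes, which Max and Mga keep silent in ESCs, differed between single lines, with their highest median in #620-6 and their highest sums in #620-6 and #620-2. Of 18 genes 24 probes were kept, 13 higher and 11 lower, with a median of 0.037, none called and 1 at an unadjusted p under 0.05. That probe was Sycp3, of the synaptonemal complex, with -0.78 in RF8, -0.85 in #620-2, -1.87 in #620-6, -1.75 in #757-1 and -1.69 in #757-2 (difference -0.95, SE 0.15, adjusted p = 0.346). Dazl, an RNA-binding protein of germ cells, stood high in #620-6 alone, with -2.28 in RF8, -1.68 in #620-2, 0.98 in #620-6, -1.40 in #757-1 and -0.82 in #757-2. Stra8, which germ cells need to enter meiosis, was high in both #620 lines, with 0.07 in RF8, 4.16 in #620-2, 3.32 in #620-6, -1.14 in #757-1 and 0.16 in #757-2. Tex101, a germ cell surface protein, had a difference of 1.16 (SE 0.44, adjusted p = 0.659). The median deviation of the list was 0.81 in #620-6 and -0.41 to -0.04 in the other lines. The summed level of the brightest probes was instead as high in #620-2 (33.1) as in #620-6 (33.8), against 12.6 to 15.6 in the other lines. In #620-2, Stra8 alone gave more of this sum than all other genes of the list together. Within slide 1 the median difference of #620-6 from the WT lines was 0.80. In the same line Max and Mga probe 1 had their highest levels of the 5 lines, by 0.10 and 0.05 over RF8, while Mga probe 2 was highest in #757-1. Mga probe 3 was also highest in #620-6, but with normexp #757-2 lay above that line by 0.096. The part of Max and Mga in the germline levels was not tested.

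The E-box CACGTG, the binding sequence of Max pairs and its own reverse complement, was sought in promoters (250 bases before to 50 after the start of each gene) of RefSeq on build GRCm38.p6, a newer build than that of the probes. Promoters were found for 9 of the 10 genes, all but Myc, and 3 of the 9 held the motif, Max, Mnt and Mxd4, against 8.09% of 27025 genes. The windows are shown because they place the motif of the network in its own genes, with the motif in capitals.
Max, chr12:76962246-76962278, minus strand: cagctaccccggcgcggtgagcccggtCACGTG
Mnt, chr11:74830774-74830833, plus strand: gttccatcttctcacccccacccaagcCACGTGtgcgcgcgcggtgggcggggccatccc
Mxd4, chr5:34187897-34187956, minus strand: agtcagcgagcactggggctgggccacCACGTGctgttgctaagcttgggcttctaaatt
Counted from the start, the first base of the motif lay 3 bases upstream in Max, 123 in Mnt and 219 in Mxd4. Among genes with a promoter in the table, 17 of 50 activated targets (34%), 11 of 18 germline genes (61.1%), 2 of 3 Mlx genes, 2 of 11 cofactors and 1 of 10 genes of the Mga complex held it, and 0 of 8 repressed targets, 0 of 10 stability genes and 0 of 6 corepressors did. These counts describe letters in a window, and the 3 genes with the motif included both the most variable gene of the network (Mxd4) and one of the steadier ones (Max).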

How the data were processed

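The authors scanned 1 one-colour Agilent mouse array per line (Cy3, Feature Extraction 9.5.3.1) and deposited scanner intensities, background-corrected but not normalized between arrays. They also deposited log2 values, which follow the scanner values (slope 0.99952 on differences between arrays) apart from a constant per probe that is not stated (array medians -0.101 to 0.0772).

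Here control spots were dropped, marked spots (0.316% to 0.355% per array) set missing, intensities divided by the 75th percentile of the array (687.52 to 794.42) and spots averaged per probe. A probe counted as well above background where the deposited mark was set on most of its spots or on as many as not. Probes that were Present on 1 array or more, 28972 in all, were tested with limma (version 3.58.1, R 4.3.3) and Benjamini-Hochberg adjustment. For 2 lines against 3 the smallest exact permutation p is 0.1. Tables were handled with data.table (version 1.17.8) and pandas 2.3.3, and matplotlib 3.10.9 drew the plots. Accessions in RefSeq named 22951 probes, symbols 6659 and synonyms 3109, and 8455 kept the name in the file.

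The members and gene lists were chosen with earlier results of these data known. All member probes are given, and from each list the 2 highest and 2 lowest genes by their brightest probe with 3 or more lines well above background. A gene that this rule also names is not reported here. Fgf4, an ESC marker, had no probe. The alternatives were normexp (offset 50), quantile normalization, the deposited log2 values, no filter, a stricter filter, marked spots kept, a block for the slide, a term for the sex label, a variance trend, the methods' t-test and each line left out. Simulated data with known differences were used to test the code. With the same rule for a call, 0.224% of probes changed 2-fold were called, 31.6% of those changed 4-fold and 80.1% of those changed 16-fold.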

Additional observations from a re-analysis of the deposited data

How the results depend on the processing

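None of the 18 tested probes of the Myc network was called under any of the 15 alternatives. Of their 270 values 18 turned sign, but no filter, the stricter filter, kept marked spots, the variance trend and the methods' t-test leave the difference itself almost or wholly as it was and say nothing of its sign. The count of calls over all probes, 1, became 0 without the filter, with quantile normalization, with normexp, with a block for the slide, with a term for the sex label and by the methods' t-test, 3 under the stricter filter, and 0 without any single line. The 2 probes of the network with an unadjusted p under 0.05 were both lost with a block for the slide, where another probe alone passed (Mycl1, so the count was 1), and the count was 1 with the methods' t-test and 0 to 3 on leaving out a line. Some differences close to 0 turned sign, Mycn probe 1 to 0.0017 and Mnt to 0.028 under normexp, and Mxi1 to 0.03 with a term for the sex label. With a block for the slide Mxi1 and Mga probe 1 turned to 0.19 and 0.15. Larger differences turned as well, Mxd4 probes 1 and 2 from -0.71 and -0.54 to 0.52 and 0.97 with that block. The -0.71 of Mxd4 probe 1 was the largest difference among the 18 probes. On leaving out each line in turn, the differences ranged from -0.42 to 0.37 for Mycn probe 1, -0.53 to 0.26 for Mycn probe 2, -0.28 to 0.28 for Mnt, -0.35 to 0.25 for Mxi1, -0.093 to 0.33 for Mxd1 probe 1 and -0.16 to 0.039 for Mga probe 1, with RF8 and #620-2 at the ends except for Mxd1 and Mga. The cause was not tested. Slide 2 held lines of 1 genotype only, so the genotypes can be compared on the same slide within slide 1 alone. The main differences use both slides with no term for the slide, so slide and genotype are partly mixed in them. The higher background of slide 2 limits what dim probes show there.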
